A study of Mus musculus with 4 samples.

Results

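The common gamma chain cytokine receptors were followed here through 10 genes, taken by name from the count tables of ovalbumin-specific CD8 T cells sorted out of E.G7 tumours. They comprise 7 receptor chains (Il2rg, Il2rb, Il2ra, Il15ra, Il7r, Il4ra and Il21r), 1 ligand (Il15) and 2 feedback inhibitors (Cish and Socs2). All 10 were present among the 14082 genes listed in each table, and all 10 passed the filter on low counts that left 13358 genes for testing. The tumours were raised by subcutaneous injection of E.G7, a line derived from the EL4 thymic lymphoma that carries ovalbumin as its model antigen, into mice of 6 to 10 weeks. Every host was homozygous for a floxed Smad4 allele. The libraries labelled KO came from Cd8-cre Smad4-fl/fl hosts, whose Cre is driven by Cd8 sequences and so acts in cells of the CD8 lineage, and the libraries labelled WT from Smad4-fl/fl hosts without Cre. Each group had 2 libraries from bulk RNA, with 25806382 and 26218277 summed counts in those labelled KO and 24366540 and 25790107 in those labelled WT. Whether the 2 libraries of a group come from different mice is not stated, so the p-values describe the spread between libraries, which may be technical. The comparison asks how RNA of the receptor family differs with the labelled Smad4 genotype in material sorted as tumour-infiltrating CD8 T cells.

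The gamma chain, encoded by Il2rg, is a shared subunit of the receptors for interleukins 2, 4, 7, 9, 15 and 21. It carries the kinase JAK3, while its partner chains carry JAK1, and the engaged receptor activates STAT proteins: chiefly STAT5 downstream of interleukins 2, 7 and 15, STAT6 downstream of interleukin 4 and STAT3 downstream of interleukin 21. In CD8 T cells these signals sustain survival, expansion and cytotoxic differentiation, and STAT5 induces inhibitors such as CIS (Cish) and SOCS2 that limit further signalling.

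The libraries were checked against the labels first. Smad4 counts were 779 and 1088 in the libraries labelled KO and 752 and 736 in those labelled WT, with overlapping CPM (each count scaled to a common library size, after TMM) and a log2 fold change of 0.19 ± 0.14 (SE, edgeR quasi-likelihood test, p adjusted over all tested genes by Benjamini-Hochberg, BH, = 0.397), so the targeted gene was not lower in the libraries labelled KO. The counts cover the whole gene and all cells of the sort, the exon removed by Cre is not given in the labels, and the KO and WT labels are kept here as given. Leaving out KO replicate 1 gave Smad4 a log2 fold change of 0.40, and leaving out KO replicate 2 gave -0.063. The CD8 T cell list held the CD8 chains Cd8a and Cd8b1, with Cd3d, Cd3e, Cd3g, Cd247 and Thy1, which other T cells also express. All 7 were listed and summed to 1584 and 1611 CPM in the libraries labelled KO, against 2423 and 2412 CPM in those labelled WT. Of the 7, 6 were lower. Cd8a and Cd8b1 had log2 fold changes of -0.93 and -0.96, and Cd3d, at -0.14, did not pass. At an adjusted p under 0.05, 11% of all tested genes were lower and 10.1% higher, to be read beside these marker counts. Markers of other cells were read as well, although the sort was for CD8 T cells. All 12 of 12 monocyte and macrophage markers were listed. They summed to 18194 and 18896 CPM in the libraries labelled KO and 18464 and 19138 CPM in those labelled WT. In every library this sum exceeded that of the 7 T cell markers above. Neutrophil markers (10 of 10 listed, 7 higher) summed to 1636 and 1641 CPM against 525 and 532 CPM, and dendritic cell markers (8 of 8, 2 higher and 1 lower) to 338 and 347 CPM against 232 and 229 CPM. The 5 markers of CD4 and regulatory T cells summed to 179 and 181 CPM in the libraries labelled KO and 153 and 154 CPM in those labelled WT. Of these, Cd4 was higher (log2 fold change 1.14, edgeR BH-adjusted p = 7.42e-06), at 63.1 and 67.7 CPM against 26.9 and 32.2 CPM. The other 4 did not pass, and 1 of them, Ikzf2, lay below, at 90.3 and 89.5 CPM against 104 and 102 CPM. B cell markers (5 of 5 listed) summed to 25.5 and 21.5 CPM against 13.5 and 13.7 CPM. NK cell markers (3 of 5 listed, Ncr1 at 0 in KO replicate 1 and Klra9 at 0 in both libraries labelled KO) summed to 1.05 and 1.30 CPM in the libraries labelled KO and 1.22 and 1.80 CPM in those labelled WT. Mast cell and basophil markers (3 of 5 listed, with Mcpt8 at 0 in KO replicate 2) summed to 148 and 126 CPM in the libraries labelled KO and 71.1 and 75.5 CPM in those labelled WT, and fibroblast and endothelial markers (5 of 5, 3 higher) to 376 and 397 CPM against 326 and 299.96 CPM. Mitochondrial genes took 6.78% of the counts in the libraries labelled KO and 10.3% in those labelled WT, on average. The part of these other cells in the results below was not tested, and in bulk RNA fewer cells of a type cannot be told apart from less RNA per cell.

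Of the 10 genes, 5 were lower and 2 were higher in the libraries labelled KO at an adjusted p under 0.05, and 3 did not pass. The same call was made for 21.2% of all tested genes, 11% in the downward and 10.1% in the upward direction. Lower were Il2rb, Il21r, Il15ra, Il2rg and Cish, and higher were Il15 and Socs2, so all 4 receptor chains of the set that passed were lower. Outside the set, the related receptor chains Il9r and Il13ra1 were higher, as given below. The median log2 fold change of the 10 genes was -0.19, against -0.0037 over all tested genes. The CPM of the groups did not overlap for 9 of the 10 genes, of which 6 were below and 3 above, but the same held for 59.8% of all tested genes. Calls for Il2rb and Il21r held under 12 of 12 other settings, whereas each of the remaining 5 called genes lost its call under at least 1 of them. Settings that leave out a library keep only 1 in its group. Their p-values, here and below, rest on the spread of the other group alone and cannot be compared with those of the full fit.

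**Figure D1:**
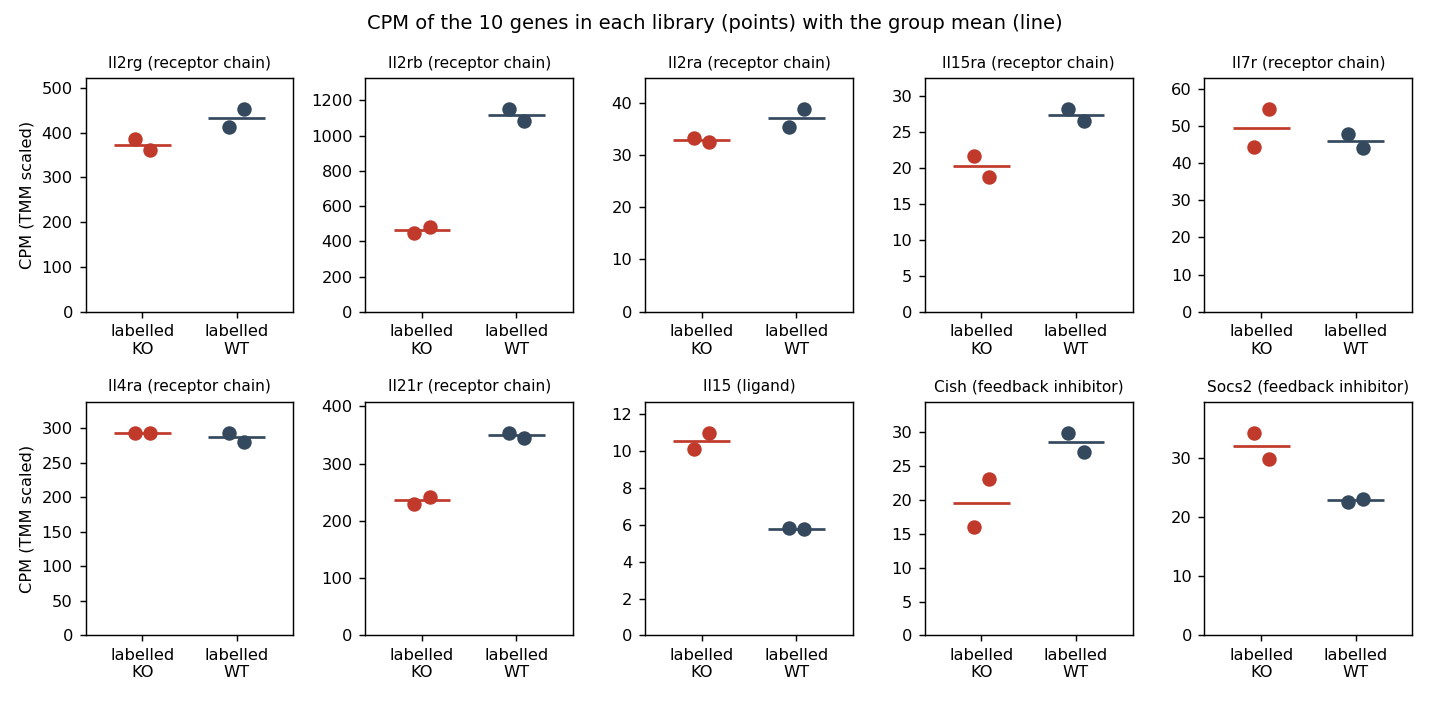
CPM (vertical axis, TMM scaled, starting at 0 in every panel) of the 10 genes in the 2 libraries labelled KO (red, left) and the 2 labelled WT (dark, right); points are libraries and lines group means. Il2rb and Il21r stand apart with both libraries labelled KO far below, Il15 and Socs2 with both above, and Il7r overlaps between the groups.

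Il2rb, the beta chain that interleukins 2 and 15 both need for signalling, showed the deepest change of the 10 genes. The gene spans bases 78479256 to 78495271 of chromosome 15 on the minus strand (mm10; all 10 genes are annotated as protein coding). It drew 11960 and 13049 counts in the libraries labelled KO and 27304 and 27021 in those labelled WT, or 467 ± 23.9 CPM against 1117 ± 50.4 CPM (SD, n = 2 each). Both libraries labelled KO were thus far below both labelled WT. Il2rb was 2.39-fold lower, a log2 fold change of -1.26 ± 0.058 (SE, edgeR BH-adjusted p = 1.49e-08). Ranked from the most negative fold change upward, it stood at place 346 of 13358 tested genes. Over the other settings its log2 fold change stayed between -1.31 and -1.17.

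Il2rg, the shared chain itself, changed little. It spans bases 101264378 to 101268255 of the X chromosome on the minus strand, where an annotated gene of the same strand overlaps it. Il2rg had 10243 and 9742 counts in the libraries labelled KO and 9799 and 11325 in those labelled WT, or 373 ± 17.1 CPM against 433 ± 28.0 CPM (SD, n = 2 each). The groups did not overlap in CPM, and Il2rg was lower by a log2 fold change of -0.22 ± 0.061 (SE, edgeR BH-adjusted p = 0.0239), or 1.16-fold. That call was lost without WT replicate 2 (edgeR BH-adjusted p = 0.253), without KO replicate 2 (edgeR BH-adjusted p = 0.0875) and when counts were scaled by library totals only (edgeR BH-adjusted p = 0.142). Adjusted p-values of Il2rg ranged from 0.00463 to 0.253 over all settings.

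Per length, the order of the beta and gamma chains differed between the groups. FPKM (fragments scaled by exon length and library size, as deposited) allows levels of different genes to be set side by side within a library. In the libraries labelled KO Il2rb had 102 and 109 FPKM, below Il2rg at 156 and 146 FPKM, a ratio of 0.650 and 0.746. In the libraries labelled WT Il2rb had 258 and 243 FPKM, above Il2rg at 167 and 183 FPKM, a ratio of 1.55 and 1.33. By mean FPKM Il2rb took place 483 of 14082 genes in the libraries labelled KO and place 194 in those labelled WT, and Il2rg took places 332 and 284. With 2 libraries against 2, the smallest p that an exact permutation test of such a ratio can give is 0.333, so the ratios are descriptions. They cover all cells in the sorted material and are not a receptor balance within CD8 T cells.

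**Figure D2:**
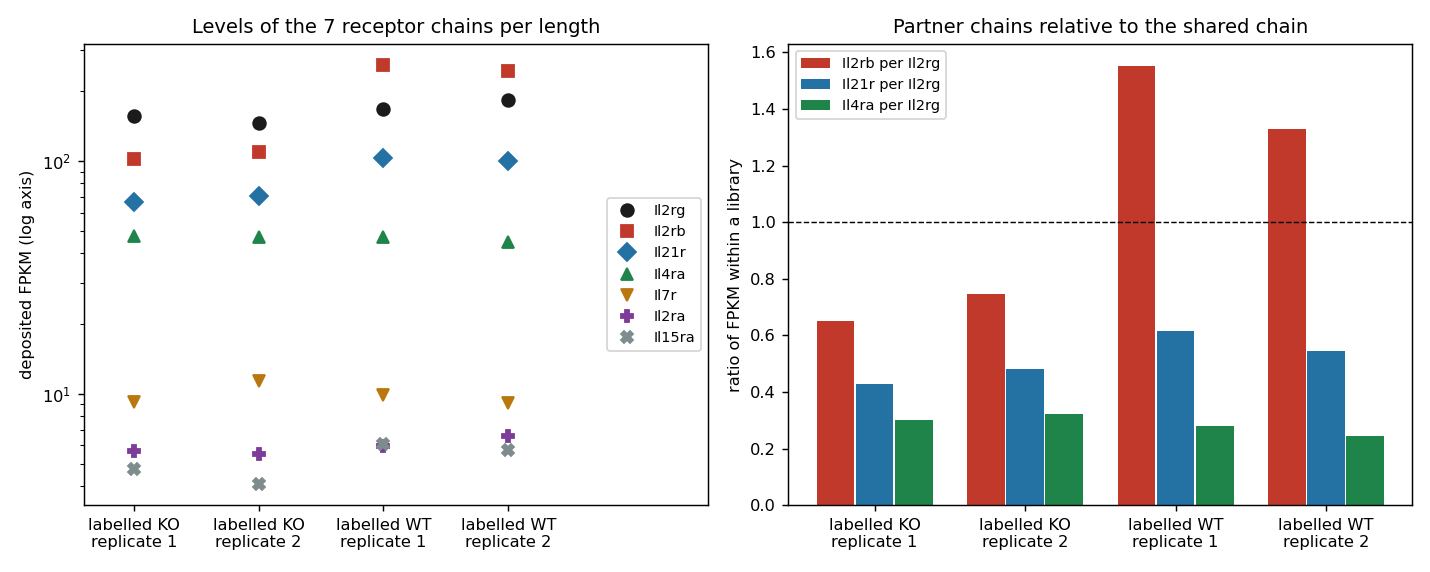
Left, deposited FPKM (log axis) of the 7 receptor chains in each library; right, FPKM of 3 partner chains divided by that of Il2rg in the same library (bars, starting at 0; dashed line at a ratio of 1). Il2rb lies below Il2rg in both libraries labelled KO, with ratios of 0.650 and 0.746, and above it in both labelled WT, with ratios of 1.55 and 1.33.

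The alpha chains of the interleukin 2 and interleukin 15 receptors were expressed far below Il2rb. Il2ra, which raises the affinity for interleukin 2 and is abundant on regulatory and recently activated T cells, spans bases 11642807 to 11693193 of chromosome 2 on the plus strand. It had 885 and 879 counts in the libraries labelled KO and 839 and 971 in those labelled WT, or 32.9 ± 0.502 and 37.1 ± 2.43 CPM (SD, n = 2 each). The CPM did not overlap, but the log2 fold change of -0.17 (95% confidence interval -0.40 to 0.053) did not pass (edgeR BH-adjusted p = 0.278). Il15ra, which binds interleukin 15 and presents it to neighbouring cells that carry the beta and gamma chains, neighbours Il2ra on chromosome 2 from 11705290 to 11734317. Il15ra had 577 and 505 counts in the libraries labelled KO and 668 and 662 in those labelled WT, or 20.2 ± 2.11 and 27.3 ± 1.21 CPM (SD, n = 2 each). Both libraries labelled KO were lower, with a log2 fold change of -0.44 ± 0.13 (SE, edgeR BH-adjusted p = 0.0271). The Il15ra call was lost without WT replicate 1, WT replicate 2 or KO replicate 2 (edgeR BH-adjusted p = 0.191, 0.0818 and 0.0732) and when counts were scaled by library totals only (edgeR BH-adjusted p = 0.0642), and its lowest adjusted p over the settings was 0.00202. Il2rb exceeded Il2ra in FPKM by 18.0 and 19.8 times in the libraries labelled KO, against 43.4 and 37.1 times in those labelled WT.

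Il21r, the receptor chain for interleukin 21 that signals with the gamma chain, was the other receptor gene whose fall held under every setting tried. It had 6100 and 6528 counts in the libraries labelled KO and 8390 and 8599 in those labelled WT, or 236 ± 8.84 and 349 ± 7.12 CPM (SD, n = 2 each). Both libraries labelled KO lay below both labelled WT. The fall was 1.48-fold, a log2 fold change of -0.57 ± 0.056 (SE, edgeR BH-adjusted p = 1.44e-05), and stayed between -0.61 and -0.48 over the other settings. Per length, Il21r was the third of the 10 genes in either group, at 66.9 and 70.4 FPKM in the libraries labelled KO and 102 and 99.8 FPKM in those labelled WT. Il21r spans bases 125603429 to 125633570 of chromosome 7 on the plus strand, next to Il4ra.

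Il4ra and Il7r did not pass the test. Il4ra, which pairs with the gamma chain for interleukin 4 and with Il13ra1 outside the lymphoid lineage for interleukins 4 and 13, spans bases 125552120 to 125579474 of chromosome 7. It had 7798 and 7919 counts in the libraries labelled KO and 6943 and 7000 in those labelled WT, or 293 ± 0.133 and 287 ± 9.17 CPM (SD, n = 2 each). Its log2 fold change was 0.034 (95% confidence interval -0.085 to 0.15, edgeR BH-adjusted p = 0.724). Il7r, the interleukin 7 receptor chain that marks naive and memory T cells and is reduced on many effector cells, spans bases 9505788 to 9530176 of chromosome 15 on the minus strand. Il7r had 1179 and 1474 counts in the libraries labelled KO and 1137 and 1099 in those labelled WT, or 49.5 ± 7.27 and 46.0 ± 2.84 CPM (SD, n = 2 each). The groups overlapped, and the log2 fold change of Il7r was 0.11 (95% confidence interval -0.13 to 0.34, edgeR BH-adjusted p = 0.553). Both intervals include small changes in either direction, so equal levels of Il4ra and Il7r are not shown.

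The 4 partner chains of the set that signal through Il2rg were also set against each other. Shares were taken of the summed FPKM of Il2rb, Il4ra, Il7r and Il21r. Il2rb made up 45.2% and 45.8% of that sum in the libraries labelled KO and 61.9% and 61.2% in those labelled WT. Il21r made up 29.7% and 29.6% against 24.5% and 25.1%, and Il4ra 21.0% and 19.9% against 11.2% and 11.3%. Il7r stayed the smallest of the 4 shares in every library, at 4.09% and 4.76% against 2.37% and 2.29%. Il9r, which also signals through Il2rg, is outside the set and was left out of the sum. It had 4.88 and 4.75 FPKM in the libraries labelled KO and 3.23 and 3.07 FPKM in those labelled WT. For each of the 4 chains the shares did not overlap between the groups. The CPM of single genes did not overlap for 59.8% of all tested genes. That is a different measure, and no background for shares was computed. Il4ra and Il7r themselves did not pass the test, with log2 fold changes of 0.034 and 0.11. The sum of the 4 chains was 1.44 and 1.63 times the FPKM of Il2rg in the libraries labelled KO, against 2.51 and 2.17 times in those labelled WT. Shares are tied to each other, so a lower share of Il2rb raises the others. Like the ratios above, they cover all cells in the sorted material.

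The full order of FPKM was the same in both groups for places 3 to 6, held by Il21r, Il4ra, Il7r and Il2ra. In the libraries labelled KO the order ran Il2rg, Il2rb, Il21r, Il4ra, Il7r, Il2ra, Il15, Il15ra, Socs2 and Cish, and neighbours overlapped for Il15 with Il15ra and for Socs2 with Cish. In the libraries labelled WT it ran Il2rb, Il2rg, Il21r, Il4ra, Il7r, Il2ra, Il15ra, Cish, Il15 and Socs2, and Il2ra overlapped with Il15ra. The 10 genes spanned 2.95 to 151 FPKM in group mean in the libraries labelled KO and 2.30 to 251 FPKM in those labelled WT.

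Il15, the ligand of the set, is made mainly by myeloid and stromal cells, which display it on IL-15 receptor alpha. Il15 spans bases 82331632 to 82403222 of chromosome 8 on the minus strand. Il15 had the fewest reads of the set, with 269 and 297 counts in the libraries labelled KO and 138 and 144 in those labelled WT, or 10.6 ± 0.629 and 5.79 ± 0.0445 CPM (SD, n = 2 each). Both libraries labelled KO were above both labelled WT, and Il15 was 1.82-fold higher, a log2 fold change of 0.87 ± 0.20 (SE, edgeR BH-adjusted p = 0.00766). Without WT replicate 1 the fold change was the same size but the call was lost (edgeR BH-adjusted p = 0.0545), and over all settings the adjusted p of Il15 ran from 0.00134 to 0.0545. In FPKM, Il15 was 0.917 and 1.16 times Il15ra in the libraries labelled KO and 0.406 and 0.428 times in those labelled WT. In the same libraries the summed dendritic cell markers were 338 and 347 CPM against 232 and 229 CPM and the summed neutrophil markers 1636 and 1641 CPM against 525 and 532 CPM, while the summed monocyte and macrophage markers overlapped between the groups. Most of the dendritic cell difference came from Siglech, at 168 and 174 CPM in the libraries labelled KO and 67.1 and 64.9 CPM in those labelled WT; the median log2 fold change of the 8 markers was 0.10, and Cd209a was lower (log2 fold change -0.33, edgeR BH-adjusted p = 0.0193). Fibroblast and endothelial markers summed to 376 and 397 CPM in the libraries labelled KO, against 326 and 299.96 CPM in those labelled WT, with 3 of 5 higher. Their part in the Il15 result was not tested.

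The feedback inhibitors moved in opposite directions. Both encode proteins with an SH2 domain and a SOCS box, which bind activated receptors and recruit a ubiquitin ligase. Cish, a target of STAT5, spans bases 107296026 to 107302784 of chromosome 9 on the plus strand, where an antisense gene and a pseudogene lie opposite it; the strand setting of the counting is not known, so the Cish count is uncertain to that extent. It had 425 and 623 counts in the libraries labelled KO and 709 and 675 in those labelled WT, or 19.5 ± 5.02 and 28.5 ± 2.06 CPM (SD, n = 2 each). Both libraries labelled KO were lower, yet at 16.0 and 23.1 CPM they lay further from each other than KO replicate 2 did from the nearest library labelled WT, at 27.0 CPM. Cish was 1.46-fold lower, a log2 fold change of -0.54 ± 0.16 (SE, edgeR BH-adjusted p = 0.0294). Leaving out KO replicate 1 gave Cish a log2 fold change of -0.30, and leaving out KO replicate 2 gave -0.83. The call was lost without KO replicate 1 or WT replicate 1. It was also lost when counts were scaled by library totals only (edgeR BH-adjusted p = 0.0560).

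Socs2, which is induced by STAT5 in many tissues and best known for limiting growth hormone signalling, spans bases 95385362 to 95417180 of chromosome 10 on the minus strand. Socs2 drew 912 and 803 counts in the libraries labelled KO and 535 and 576 in those labelled WT, or 32.0 ± 3.21 and 22.8 ± 0.329 CPM (SD, n = 2 each). Both libraries labelled KO were above both labelled WT. Socs2 was 1.40-fold higher, a log2 fold change of 0.49 ± 0.12 (SE, edgeR BH-adjusted p = 0.0111). That call was lost without WT replicate 1 (edgeR BH-adjusted p = 0.0820), and over all settings the adjusted p ran from 0.00018 to 0.0820. In FPKM, Socs2 was 1.45 and 0.868 times Cish in the libraries labelled KO and 0.508 and 0.575 times in those labelled WT.

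**Figure D3:**
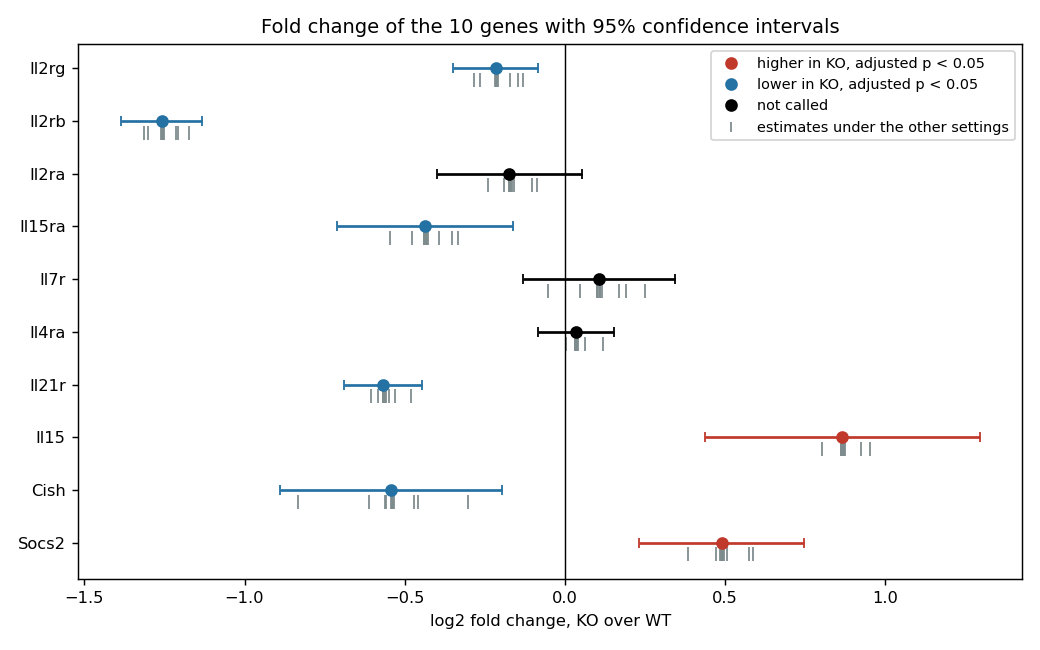
Log2 fold change (horizontal axis, KO over WT) of the 10 genes with 95% confidence intervals; colour gives the call at an adjusted p under 0.05, and grey ticks under each point are the estimates under the 12 other settings. The Il2rb and Il21r estimates stay far from 0, those of Cish spread from -0.83 to -0.30, and those of Il7r lie on either side of 0.

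Promoter windows of 300 bases, 250 before and 50 after a RefSeq gene start (GRCm38.p6, the assembly of mm10), were read for 7 of the 10 genes in 8 windows (all but Il2rb, Il15 and Socs2), in search of the letters that STAT and SMAD proteins are known to prefer. TTCNNNGAA, the core of STAT5 sites, was found on either strand in the windows of Cish and Il7r among these 7 genes, and in 8.29% of 32817 windows of all genes. The Cish window (chr9:107296409-107296708, plus strand) held it 2 times, at bases 0 to 8 and 11 to 19 counted from the start base as 0, and the Il7r window (chr15:9529827-9530126, minus strand) held it 1 time, at bases -142 to -134. Both are shown because they hold the core, with it in capitals, 5′ to 3′ on the strand of the gene.
Cish: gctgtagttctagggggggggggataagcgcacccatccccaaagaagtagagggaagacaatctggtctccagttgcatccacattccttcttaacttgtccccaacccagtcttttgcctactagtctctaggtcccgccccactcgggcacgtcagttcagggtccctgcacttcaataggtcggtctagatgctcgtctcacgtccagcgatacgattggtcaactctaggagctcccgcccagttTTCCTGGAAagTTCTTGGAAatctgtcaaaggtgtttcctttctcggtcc
Il7r: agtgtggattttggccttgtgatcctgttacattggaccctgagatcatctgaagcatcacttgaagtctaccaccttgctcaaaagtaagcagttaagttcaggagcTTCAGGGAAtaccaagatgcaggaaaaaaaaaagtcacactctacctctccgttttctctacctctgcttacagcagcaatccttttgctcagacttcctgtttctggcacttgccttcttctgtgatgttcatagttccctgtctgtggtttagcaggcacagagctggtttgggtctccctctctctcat
The STAT6-type core, which has 1 more free base between TTC and GAA, was in none of the 8 windows and in 6.94% of all windows, and it cannot use the same TTC and GAA as the shorter core. CAGAC, a short element bound by SMAD proteins, was in the windows of Il7r, Il4ra and Il21r, and in 49.6% of all windows. The Il21r window (chr7:125603179-125603478, plus strand) is shown because Il21r was the single called receptor gene with the element among the windows read, with its 2 matches in capitals, 1 on each strand, at bases -165 to -161 and -152 to -148.
Il21r: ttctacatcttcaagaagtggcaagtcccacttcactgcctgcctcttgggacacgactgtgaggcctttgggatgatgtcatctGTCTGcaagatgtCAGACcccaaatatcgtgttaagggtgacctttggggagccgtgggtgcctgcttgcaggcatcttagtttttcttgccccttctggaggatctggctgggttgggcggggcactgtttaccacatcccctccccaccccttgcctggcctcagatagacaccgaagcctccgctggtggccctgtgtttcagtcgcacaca
Such matches are letters in a window, not measured binding.

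The genes were also set beside T cell marker RNA in each library. Every count was divided by the summed counts of Cd8a and Cd8b1, the chains of the CD8 co-receptor. Cd8a and Cd8b1 were lower themselves in the libraries labelled KO, with log2 fold changes of -0.93 and -0.96. Per 100 counts of the CD8 chains, Il2rb had 113 and 119 counts in the libraries labelled KO and 148 and 142 in those labelled WT. Il2rb was the single gene of the 10 that was lower on this scale, by 1.25-fold, and its ratio was also lower per Cd3e count, by 1.45-fold, and per Thy1 count, by 2.01-fold. Il21r had 57.9 and 59.7 counts per 100 against 45.5 and 45.3, and Il2rg 97.2 and 89.1 against 53.2 and 59.7. Il7r had 11.2 and 13.5 counts per 100 in the libraries labelled KO against 6.17 and 5.80, Il4ra 74.0 and 72.4 against 37.7 and 36.9, and Il15 2.55 and 2.72 against 0.749 and 0.759. Per Thy1 count, Il21r, Il15ra and Cish were lower instead, by 1.24-fold, 1.13-fold and 1.22-fold, so their direction relative to T cell RNA depended on the marker chosen. Il2rg and Il2ra, higher per CD8 chain by log2 ratios of 0.72 and 0.76, overlapped between the groups per Thy1 count, with log2 ratios of 0.036 and 0.078. These ratios have no test, and several of the 10 genes are also expressed by cells that lack CD8. E.G7 comes from a thymic lymphoma, no markers of the tumour cells were read, and their part in the divisor counts was not tested. The ratios are therefore not a measure per CD8 T cell.

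At an adjusted p under 0.05, 10.1% of all tested genes were higher and 11% lower, to be read beside each list below. Of the other ligands and partner chains, 7 of 11 were listed and 6 were tested, of which 2 were higher and 0 lower. Both were receptor chains: Il9r, which pairs with the gamma chain for interleukin 9, had 24.9 and 24.3 CPM in the libraries labelled KO and 16.6 and 15.8 CPM in those labelled WT (log2 fold change 0.60 ± 0.13, SE, edgeR BH-adjusted p = 0.00492). Il13ra1, which pairs with Il4ra in place of the gamma chain, had 52.1 and 43.1 CPM against 31.2 and 32.8 CPM (log2 fold change 0.57 ± 0.11, SE, edgeR BH-adjusted p = 0.00294). No tested gene of this list was called lower by DESeq2 or limma-voom either. Without KO replicate 2, Crlf2, the thymic stromal lymphopoietin receptor chain that pairs with Il7r, had a log2 fold change of -0.345. With all libraries Crlf2 changed by -0.30 ± 0.11 on the log2 scale (SE, edgeR BH-adjusted p = 0.0823), with an unadjusted p of 0.0208, and it was the single tested gene of this list with a negative fold change. The cytokine genes were close to the counting limit: Il2 had 3 and 3 counts in the libraries labelled KO and 9 and 6 in those labelled WT, and was not tested. Il7 had 67 and 54 counts against 51 and 27, Il21 5 and 31 against 10 and 8, and neither passed.

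JAK and STAT genes of the pathway fell or did not pass. Of 6 tested, 3 were lower, 0 higher and 3 did not pass, with a median log2 fold change of -0.22. Stat3, the main transcription factor downstream of interleukin 21, had 521 and 502 CPM in the libraries labelled KO and 891 and 863 CPM in those labelled WT (log2 fold change -0.78 ± 0.052, SE, edgeR BH-adjusted p = 4.94e-07). Jak3, the kinase of the gamma chain, had 93.5 and 101 CPM against 160 and 152 CPM (log2 fold change -0.68 ± 0.068, SE, edgeR BH-adjusted p = 1.58e-05). Jak1, the kinase of the partner chains, had a log2 fold change of -0.33 (edgeR BH-adjusted p = 0.00148). The STAT5 genes did not pass: Stat5a changed by 0.16 and Stat5b by -0.0063 on the log2 scale (edgeR BH-adjusted p = 0.148 and 0.967). Stat5a passed as higher when counts were scaled by library totals only (edgeR BH-adjusted p = 0.0270), while DESeq2 and limma-voom called 0 genes of this list higher. Its unadjusted p with TMM was 0.0477, and it was the single gene of the list with a positive fold change.

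Genes that interleukin 2 or 15 can induce in T cells moved both ways. Of 17 tested, 4 were higher, 6 lower and 7 did not pass, with a median log2 fold change of 0.014. The deepest falls were the granule genes Prf1 and Gzmb, at 167 and 173 CPM against 800.2 and 772 CPM for Prf1 (log2 fold change -2.21, edgeR BH-adjusted p = 2.04e-10) and 86.6 and 93.6 CPM against 397 and 399 CPM for Gzmb. Prdm1, which encodes the effector regulator BLIMP-1, and the phosphatase gene Dusp5 had log2 fold changes of -0.63 and -0.41 (edgeR BH-adjusted p = 0.000593 and 0.000355). Osm, which encodes the cytokine oncostatin M, was higher, at 184 and 205 CPM in the libraries labelled KO against 127 and 128 CPM (log2 fold change 0.61, edgeR BH-adjusted p = 3.52e-05), as was Myc (log2 fold change 0.38, edgeR BH-adjusted p = 0.000519). The glucose transporter gene Slc2a1 was higher by 0.19 on the log2 scale (edgeR BH-adjusted p = 0.0420), a call lost without WT replicate 1, WT replicate 2 or KO replicate 2 (edgeR BH-adjusted p = 0.113, 0.210 and 0.235) and with the replicate number as a block (edgeR BH-adjusted p = 0.0914). The other lower genes were the survival genes Bcl2l1 and Mcl1, with log2 fold changes of -0.23 and -0.22 (edgeR BH-adjusted p = 0.0265 and 0.0194). Bcl2l1 did not pass on leaving out WT replicate 1, WT replicate 2 or KO replicate 1 (edgeR BH-adjusted p = 0.0907, 0.122 and 0.144), nor under scaling by library totals only (edgeR BH-adjusted p = 0.133). Mcl1 did not pass on leaving out either library labelled WT (edgeR BH-adjusted p = 0.0851 and 0.141), with the replicate block (edgeR BH-adjusted p = 0.0519) or under scaling by library totals only (edgeR BH-adjusted p = 0.130). Bcl2, another survival gene, and the kinase gene Pim1 had log2 fold changes of 0.14 and 0.014 (edgeR BH-adjusted p = 0.366 and 0.921) and did not pass. These 4 genes were named after their values were seen.

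Among 15 attenuators of cytokine signalling, 2 were higher, 1 was lower and 12 did not pass, with a median of -0.03. That is near the share over all tested genes, of which 21.2% were called. Socs3, an inhibitor of STAT3-activating receptors, had 249 and 259 CPM in the libraries labelled KO and 214 and 198 CPM in those labelled WT (log2 fold change 0.30 ± 0.060, SE, edgeR BH-adjusted p = 0.00331). Ptpn6, the phosphatase SHP-1, was higher by 0.22 (edgeR BH-adjusted p = 0.0101), a call lost without WT replicate 1 or KO replicate 2 (edgeR BH-adjusted p = 0.0908 and 0.0552). Ptpn1, a phosphatase of JAK and receptor substrates, changed by -0.23 (edgeR BH-adjusted p = 0.00971), a call lost without WT replicate 2 (edgeR BH-adjusted p = 0.0821) and when counts were scaled by library totals only (edgeR BH-adjusted p = 0.0730). Socs1, the inhibitor of JAK kinases, changed by -0.030 (edgeR BH-adjusted p = 0.874), so of the 3 classic feedback genes Cish, Socs1 and Socs3 the first was lower, the last higher, and Socs1 did not pass.

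**Figure D4:**
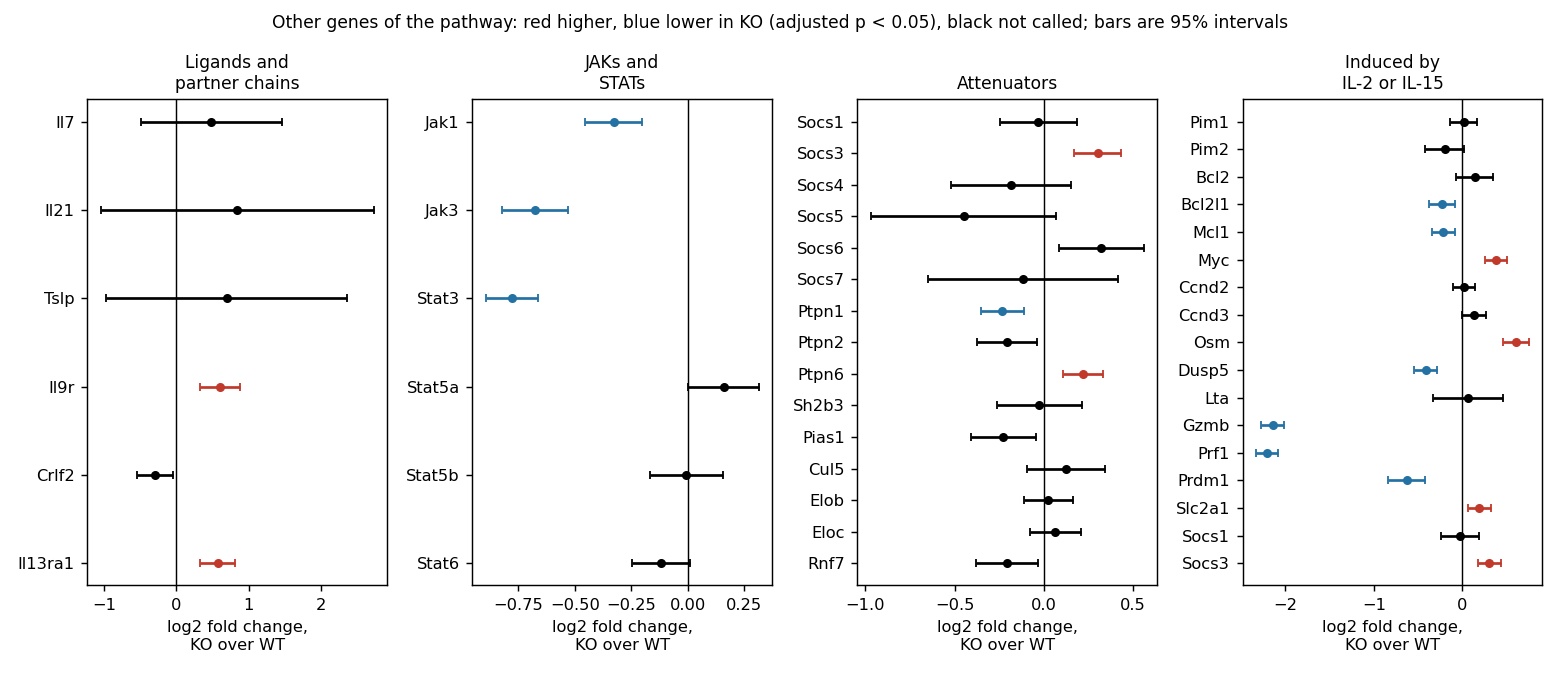
Log2 fold change (horizontal axes, KO over WT, each panel with its own range) of the tested genes in 4 lists of the pathway, with 95% confidence intervals; red genes were higher, blue lower and black not called. Falls of Stat3, Jak3 and Jak1 stand beside Stat5a and Stat5b, which did not pass, and the falls of Prf1 and Gzmb exceed all others shown.

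Of 8 transcription factors that control Il7r, 1 was higher, 2 were lower and 5 did not pass, with a median log2 fold change of -0.21. Ets1 had 265 and 246 CPM in the libraries labelled KO and 330 and 336 CPM in those labelled WT (log2 fold change -0.38 ± 0.058, SE, edgeR BH-adjusted p = 0.000498). Foxo1, an activator of Il7r, was lower by a log2 fold change of -0.34 (edgeR BH-adjusted p = 0.0325), which did not pass on leaving out WT replicate 1 or 2 (edgeR BH-adjusted p = 0.162 and 0.177), when counts were scaled by library totals only (edgeR BH-adjusted p = 0.0934) and in DESeq2 (DESeq2 BH-adjusted p = 0.0525). Foxo3 was higher by 0.47 (edgeR BH-adjusted p = 0.0125), which did not pass on leaving out WT replicate 1 or 2 (edgeR BH-adjusted p = 0.102 and 0.0671).

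Receptor chains of other cytokine families, 20 genes in all, gave 4 higher, 5 lower and 11 that did not pass. Their median was -0.028, against -0.22 for the 7 receptor chains of the set. Those 7 leave out Il9r, Il13ra1 and Crlf2, with log2 fold changes of 0.60, 0.57 and -0.30. No test of the difference between the lists was made. Lower were chiefly the interleukin 18 receptor chains, with log2 fold changes of -1.50 for Il18rap and -1.07 for Il18r1 (edgeR BH-adjusted p = 3.47e-08 and 1.52e-05), followed by Il10ra at -0.61 and Il27ra at -0.47 (edgeR BH-adjusted p = 0.000215 and 0.00397). The fifth, Il12rb2, had a log2 fold change of -0.67 (edgeR BH-adjusted p = 0.0287) and was named after its values were seen. Il12rb2 did not pass on leaving out WT replicate 1, WT replicate 2 or KO replicate 1 (edgeR BH-adjusted p = 0.0962, 0.211 and 0.0548). Leaving out WT replicate 1 also ended the call of Il27ra (edgeR BH-adjusted p = 0.0748). Higher were Il1r2, a decoy receptor for interleukin 1, at 0.99 and Il17ra at 0.53 (edgeR BH-adjusted p = 1.02e-07 and 9.80e-05). Ifnar2 and Ifngr2, chains of the interferon receptors, were higher by 0.31 and 0.26 (edgeR BH-adjusted p = 0.0186 and 0.0367). On leaving out WT replicate 2 neither passed (edgeR BH-adjusted p = 0.162 and 0.0767), and Ifngr2 also without WT replicate 1 or KO replicate 1 (edgeR BH-adjusted p = 0.218 and 0.181).

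The profiles nearest to those of Il2rb and Il15, the deepest fall and the steepest rise of the set, were sought among 10039 other genes of at least 5 CPM, by the root mean square difference of log2(CPM + 1), centred on each gene's mean, over the 4 libraries. The added 1 shrinks the differences of low genes such as Il15 and Tacc2, so near neighbours on that scale can differ in the fitted log2 fold changes given here. Nearest to Il2rb were Ctla4, Tacc2 and Rgs16, at 0.0184, 0.0221 and 0.0266 log2 units. Their log2 fold changes were -1.29, -1.40 and -1.25. Nearest to Il15 were Pdxp, Il1b and Ripor2, at 0.0107, 0.0231 and 0.0245 log2 units, with log2 fold changes of 0.79, 0.79 and 0.75. With 4 libraries in 2 groups, such likeness says little beyond a fold change of similar size.

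**Figure D5:**
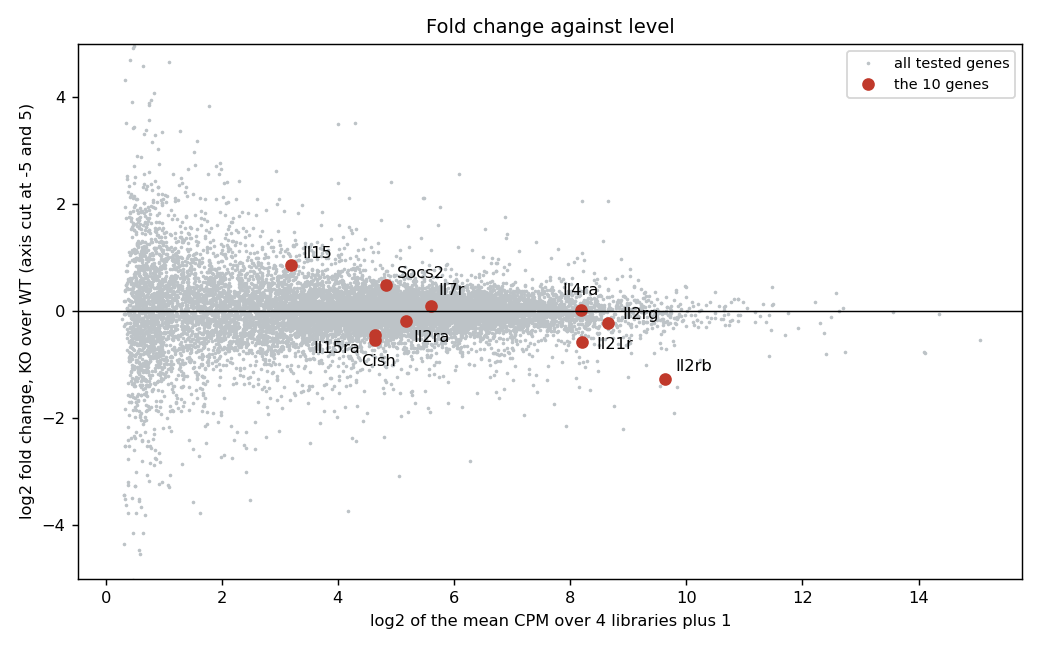
Log2 fold change (vertical axis, KO over WT, cut at -5 and 5) against the log2 of mean CPM plus 1 (horizontal axis) for 13358 tested genes (grey) and the 10 genes of the set (red). Il2rb is the most abundant of the 10 by CPM and lies at -1.26, and Il15, the least abundant, lies at 0.87.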

How the data were processed

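Bulk RNA was measured in 4 libraries of sorted ovalbumin-specific CD8 T cells, 2 labelled KO and 2 labelled WT, grouped by their titles. Per the submitters' processing notes, the tools were featureCounts, DESeq2, edgeR, Bowtie2 and Trim Galore 0.4.4, with no roles or order, and the build was mm10. The strand setting and annotation were not stated. Counts per gene were deposited as whole numbers, per the file headers, and every listed gene had at least 20 over the 4 libraries. The FPKM values were deposited by the authors; for 10 of 10 genes they fit the exon length of GENCODE M21, the source of coordinates (counted from 1), within 0.1%. Their implied totals were 1.063 and 1.065 times the summed counts in the libraries labelled KO and 1.012 and 1.005 times in those labelled WT.

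Counts were tested in edgeR 4.0.16 (R 4.3.3) with TMM scaling, filterByExpr (count minimum 10, total minimum 15), robust glmQLFit and glmQLFTest, with Benjamini-Hochberg adjustment over 13358 genes. A gene was called at an adjusted p under 0.05. SE is the fold change over the square root of F. The step was also run on counts simulated from the means and dispersions fitted to these same libraries. Such a run cannot show effects of batch or cell mixture. Alternatives were other scalings, filters, a replicate block, limma-voom (limma 3.58.1), DESeq2 1.42.0, an adjusted p of 0.01 and the removal of 1 library at a time. Such a removal leaves 1 library in its group, whose spread then does not enter the p-values or the counts of calls. Genes that the files do not list had no value. Il2rg overlaps an annotated gene on the same strand, Il2ra an unconfirmed transcript, and Il4ra and Cish antisense genes or a pseudogene, none of them listed, so shared reads cannot be told apart. The paired libraries varied beyond sampling error (chi-square per degree of freedom 9.72 for KO and 7.39 for WT), so neither pair was merged.

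The genes and lists were chosen with earlier results of these data known. The rule for named genes took the 10 genes, Smad4, up to 4 called genes in each direction of each list by p, and the nearest profiles on log2(CPM + 1). Outside it, Stat5a, Stat5b, Socs1, Crlf2, Il2, Il7, Il21, Pim1, Bcl2, Bcl2l1, Mcl1, Il12rb2 and the cell type markers given with values were named after their values were seen. Protein sequences were not used here. Of the genes first placed on the lists, 2 are not reported here and were left out of the list counts and sums.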

Additional observations from a re-analysis of the deposited data

How the results depend on the processing

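Il2rb and Il21r kept direction and call, and Il2ra and Il4ra their direction without a call, under all 12 other settings (scaling, filter, block, left-out library, tool). With an adjusted p of 0.01, 2 of the 10 genes were lower and 1 higher, 711 genes of all were higher and 837 lower. Of the pathway genes, 5 were then higher and 9 lower. With library totals alone, 2 of the 10 were lower and 2105 genes of all were higher, so that higher calls outnumbered 1013 lower ones, against 1354 and 1472 with TMM; the median of all genes was 0.0815, against -0.0037 with TMM. Leaving out 1 library gave 0 to 2 higher and 3 to 4 lower of the 10, 714 to 1605 higher and 831 to 1787 lower of all genes, and 5 to 9 higher and 8 to 16 lower pathway genes (8 and 12 with all libraries). Without WT replicate 1 there were 714 higher and 831 lower genes, and without WT replicate 2 there were 837 and 922; the cause was not tested. Il7r turned to -0.053 without KO replicate 2 (edgeR adjusted p = 0.787), and its leave-one-out values reached 0.25. With the replicate number as a block, 2 of the 10 genes were higher and 5 lower, the same counts as without it, and 1393 genes of all were higher and 1522 lower; the labels do not say what a number shares, and the deviations of same-numbered libraries had a correlation of -0.0444 across genes. Fold changes of mean FPKM moved by less than the library spread for all 10 genes when counts per length were TMM scaled instead. Genes of few reads, such as Il15, Il7 and Il21, have wide errors.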
